A study of Mus musculus with 13 samples.

Results

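Fatty acids reach brown adipocytes from triglyceride-rich lipoproteins and from albumin-bound fatty acids in plasma. The route was followed here through 10 genes, Lpl, Lmf1, Angptl4, Gpihbp1, Cd36, Fabp4, Fabp5, Slc27a1, Slc27a4 and Vldlr. These genes were chosen for their known roles in the route, with earlier results of these data known. They are 10 of the 42416 gene identifiers in the deposited tables, and 10 of 10 passed the filter on low counts, more than 1 CPM (count per M counts of the library, M standing for mega) in 5 libraries or more. Bulk RNA sequencing was done on interscapular brown adipose tissue (iBAT) in 13 libraries. The 8 libraries labelled iFAXLKO (hereafter the labelled libraries) came from mice with loxP sites around Axl that carry Cre, and the 5 wild-type (WT) libraries from mice that carry the same floxed Axl without Cre. Mice of both groups were kept at room temperature on a high-fat diet (HFD) and dosed with tamoxifen at intervals of 3 weeks, so the floxed allele, the diet and the drug are shared by the controls. Per the methods and figure legends of the study, the mice were female littermates, dosing began in young adults, and Cre was the Adipoq-CreERT2 transgene, which is carried on a bacterial artificial chromosome and is active in adipocytes. It is not directed at the endothelial, stromal and immune cells that share the depot.

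Lipoprotein lipase (LPL) is made by adipocytes, is folded with the help of LMF1 in the endoplasmic reticulum, and is carried to the capillary lumen by GPIHBP1 on endothelial cells, where it releases fatty acids from circulating triglycerides. ANGPTL4 inhibits the enzyme. CD36 takes up the fatty acids at endothelial and adipocyte membranes, the transport proteins encoded by Slc27a1 and Slc27a4 join uptake to activation with coenzyme A, FABP4 and FABP5 carry fatty acids in the cytosol, and VLDLR binds lipoprotein particles. Brown fat draws heavily on this route when it produces heat.

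Depth and the checks of the labels bear on every value that follows. Libraries held from 22.44 to 32.6 M counts, and genes of the mitochondrial genome took from 18.3% to 21.3% of them. Axl itself, at which Cre is aimed, had a mean of 33.1 ± 6.16 CPM in the 8 labelled libraries, not below the 27.8 ± 3.82 CPM of the 5 WT libraries. Its log2 fold change of 0.25 (SE 0.13) had an adjusted p of 0.699 in edgeR, so groups are named by their labels and every direction rests on those labels. The gene total does not separate the floxed exons from the rest. The 9 adipocyte markers summed to at least 13263 CPM in every library, and 2 of 9 had a positive difference, where 46.4% of all genes tested did. Ucp1, the uncoupling protein of brown fat, averaged 5599 ± 1121 CPM in the labelled group and 6367 ± 914 CPM in WT. In bulk tissue, fewer cells of a type and less RNA per cell cannot be told apart.

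The 10 genes took together 1.43% ± 0.124 of the counts of a library labelled iFAXLKO (SD, n = 8) and 1.42% ± 0.141 of a WT library (SD, n = 5). None of them passed the test between the groups. In edgeR 0 of 10 had an adjusted p under 0.05, where 0.127% of the 13360 genes tested did, and 0 of 10 had an unadjusted p under 0.05, against 7.38% of all genes (3.84% higher and 3.54% lower in the labelled group). DESeq2 and limma-voom also gave 0 of 10, and DESeq2 called 0.502% of its genes. The CPM ranges of the groups overlapped for 10 of 10, while 0.434% of all genes had ranges apart. Log2 fold changes of libraries labelled iFAXLKO against WT were positive for 4 genes and negative for 6, with a median of -0.01. Over all genes tested 53.6% were negative and the median was -0.01.

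**Figure D1:**
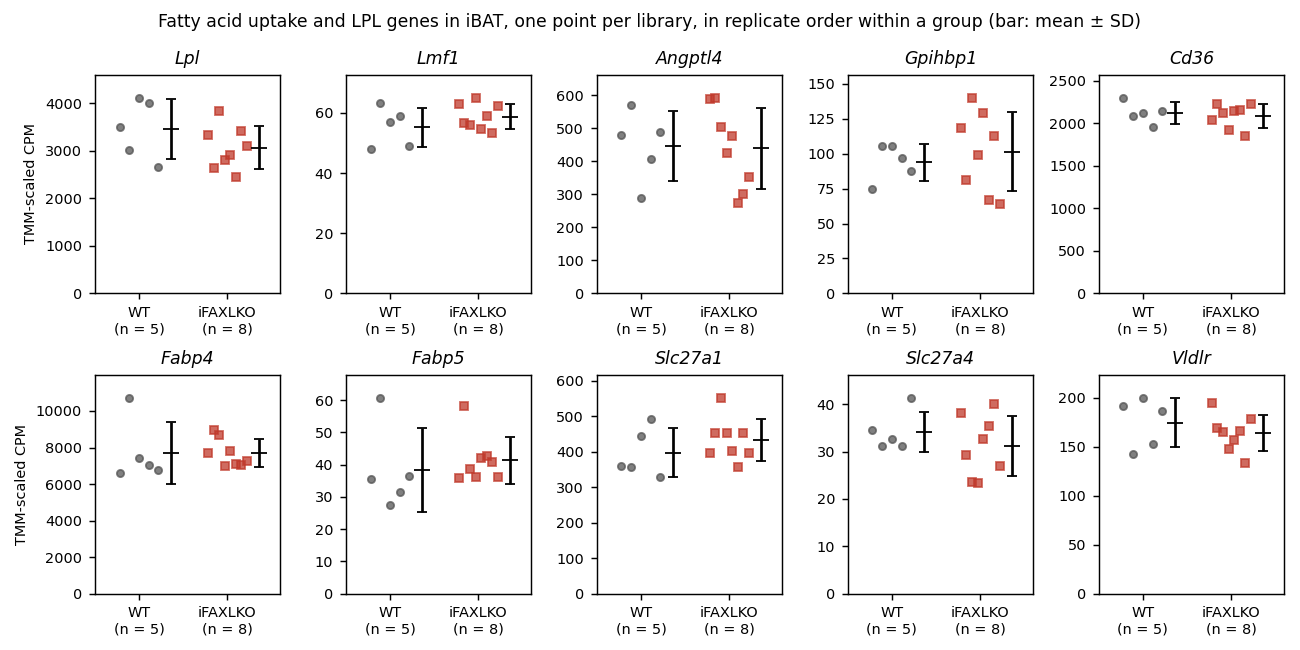
TMM-scaled CPM of the 10 genes (y axis of each panel, from 0) in the 5 WT libraries (grey circles) and the 8 libraries labelled iFAXLKO (red squares), with the mean ± SD of each group as a black bar beside its points. The groups overlap in 10 of 10 panels, and WT replicate 2 stands above the other WT libraries for Fabp4 at 10696 CPM and for Fabp5 at 60.6 CPM.

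The 95% intervals limit how far each gene could have differed. The tightest was that of Cd36, a change from -11.8% to 9.83%, and the widest on the scale of log2 fold changes was that of Angptl4, from -27.1% to 32.3%. Fabp4 had an interval from -16.2% to 18.5%, and Lpl from -26.5% to 6.83%. For 10 of 10 genes the log2 interval included 0.

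**Figure D2:**
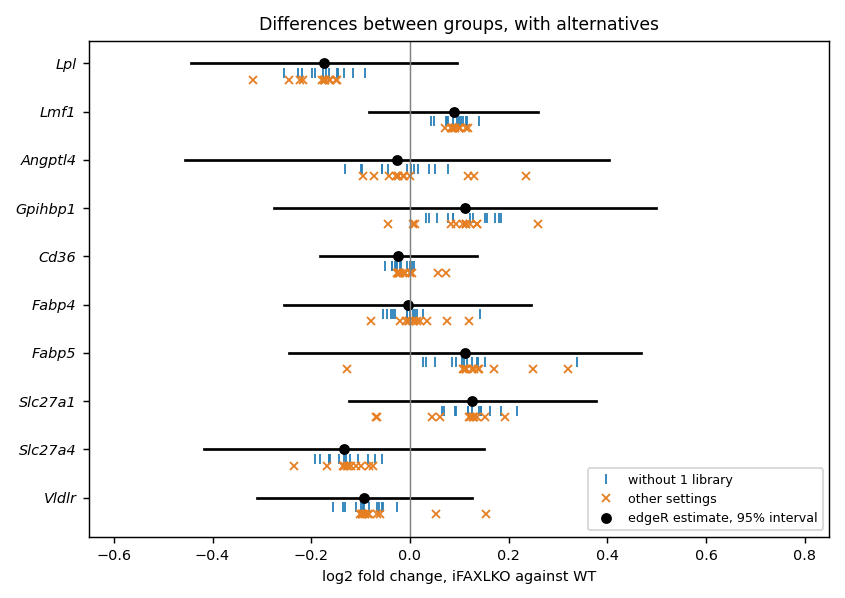
Log2 fold change of libraries labelled iFAXLKO against WT (x axis) for the 10 genes (y axis), as the edgeR estimate with its 95% interval (black), after leaving out each library in turn (blue ticks) and under the other settings (orange crosses). Each black interval includes 0, and the estimates lie between -0.17 for Lpl and 0.13 for Slc27a1.

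Lpl (ENSMUSG00000015568, chromosome 8, 68880491 to 68907448, plus strand, GRCm38), the lipase itself, was the gene of the set with the smallest p. The WT libraries held 3508, 3028, 4115, 4009 and 2656 CPM, and the libraries labelled iFAXLKO 2457 at the lowest, 3017 at the median and 3844 at the highest. In the labelled group, replicates 6 and 2 lay below every WT library, at 2457 and 2650 CPM. Of its 8 libraries, 1 exceeded the WT mean. Its mean of 3069 ± 453 CPM (SD, n = 8) against 3463 ± 626 CPM (SD, n = 5) gave a log2 fold change of -0.17 (SE 0.13), with an adjusted p of 0.821 in edgeR. The library numbers in the labels fall into a lower and an upper range, each holding both groups. The difference of mean log2 CPM of Lpl was -0.06 in the lower range, with 4 libraries labelled iFAXLKO and 2 WT, and -0.25 in the upper, with 4 and 3.

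Lmf1 (ENSMUSG00000002279, chromosome 17, 25579085 to 25662826, plus strand), the maturation factor without which LPL is not secreted in active form, held 48.1, 63.2, 56.9, 59.1 and 49.2 CPM in WT. In the libraries labelled iFAXLKO it ran from 53.4 through a median of 57.9 to 64.98 CPM. The 2 lowest values of all were WT libraries, and 6 of 8 labelled libraries lay above the WT mean. With a log2 fold change of 0.09 (SE 0.08), its adjusted p was 0.875.

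Angptl4 (ENSMUSG00000002289, chromosome 17, 33773750 to 33781830, minus strand), the fasting-induced inhibitor of LPL, was the most variable of the 10 genes between libraries. WT libraries held 481, 569, 288.3, 407 and 489 CPM, and those labelled iFAXLKO from 273 through a median of 451 to 591 CPM. The WT range lay inside the labelled range, and 4 of 8 labelled libraries exceeded the WT mean. The log2 fold change of -0.03 (SE 0.20, adjusted p = 0.990) was 0.000167 with upper quartile factors, 0.13 in limma-voom and 0.24 with the replicate number as a block.

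Gpihbp1 (ENSMUSG00000022579, chromosome 15, 75596628 to 75599481, plus strand), the endothelial anchor of LPL, spread more among the libraries labelled iFAXLKO than among the WT ones. In WT it was at 74.5, 106, 105, 96.6 and 87.4 CPM. The labelled libraries ran from 64.3 to 140 CPM around a median of 106, so that they reached both below and above every WT library. The means of 101 ± 28.4 CPM (SD, n = 8) and 94.0 ± 13.2 CPM (SD, n = 5) gave a log2 fold change of 0.11 (SE 0.18), with an adjusted p of 0.947. The difference was 0.27 in the lower range of library numbers and -0.11 in the upper.

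Cd36 (ENSMUSG00000002944, chromosome 5, 17781690 to 17888801, minus strand), the scavenger receptor for long-chain fatty acids, was the steadiest of the set. Its WT values were 2299, 2088, 2128, 1953 and 2146 CPM, and the labelled libraries lay between 1852 and 2231 CPM with a median of 2139. The highest library of all was WT and the lowest was labelled iFAXLKO, and 5 of 8 labelled libraries exceeded the WT mean. A log2 fold change of -0.02 (SE 0.07) had an adjusted p of 0.977, and with upper quartile factors it was 0.00349.

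Fabp4 (ENSMUSG00000062515, chromosome 3, 10204088 to 10208576, minus strand), the fatty acid binding protein that is typical of adipocytes and capillaries, took the most CPM of the 10, a count that is not scaled by length. WT libraries held 6622, 10696, 7420, 7052 and 6781 CPM. Replicate 2 stood apart from the other 4. The libraries labelled iFAXLKO, from 7004 through a median of 7495 to 8939 CPM, lay within the WT range, and those at the lower end overlapped the other WT libraries. The log2 fold change, -0.0045 (SE 0.12, adjusted p = 0.996), became 0.02 with upper quartile factors and 0.14 without WT replicate 2.

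Fabp5 (ENSMUSG00000027533, chromosome 3, 10012548 to 10016607, plus strand), a paralogue with wider expression, followed the same replicate. In WT its values were 35.4, 60.6, 27.5, 31.6 and 36.3 CPM, and the labelled libraries lay between 35.9 and 58.1 CPM with a median of 39.7. The highest library was replicate 2 in each group, and the labels do not state whether the numbers pair the groups. Its log2 fold change of 0.11 (SE 0.17, adjusted p = 0.942) became 0.34 without WT replicate 2, 0.0257 without iFAXLKO replicate 2 and 0.32 in limma-voom (unadjusted p = 0.0221, adjusted p = 0.349). Differences of mean log2 CPM were -0.16 and 0.35 in the lower and upper ranges of library numbers. Of the stretches of 50 bases in its transcripts, 21.1% occur in other genes too, most of them predicted genes and the paralogue Fabp5l2, so counts of Fabp5 are uncertain. This share was 1.81% for Lpl, 1.56% for Slc27a1 and 0 for the other 7.

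Slc27a1 (ENSMUSG00000031808, chromosome 8, 71568882 to 71587302, plus strand) encodes FATP1, the insulin-responsive transport protein of fat and muscle. WT libraries held 359, 357, 443, 492 and 328 CPM, and libraries labelled iFAXLKO from 358 through a median of 427 to 550 CPM. Of these, 6 of 8 lay above the WT mean, with a log2 fold change of 0.13 (SE 0.12) and an adjusted p of 0.879. The difference of mean log2 CPM was 0.36 in the lower range of library numbers and -0.05 in the upper.

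Slc27a4 (ENSMUSG00000059316, chromosome 2, 29802634 to 29817522, plus strand) encodes FATP4 and took the fewest CPM of the 10, again without regard to length. WT values were 34.6, 31.2, 32.7, 31.3 and 41.3 CPM, and labelled values ran from 23.4 through a median of 30.9 to 40.0 CPM. The spread was larger downward in the labelled group, with 3 of 8 above the WT mean. A log2 fold change of -0.13 (SE 0.13) had an adjusted p of 0.884.

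Vldlr (ENSMUSG00000024924, chromosome 19, 27216484 to 27254231, plus strand), the receptor for apolipoprotein E-bearing particles, held 191, 143, 199, 153 and 187 CPM in WT. The labelled libraries ran from 134 through a median of 165 to 195 CPM. They covered most of the WT range, with 2 of 8 above its mean, and a log2 fold change of -0.09 (SE 0.10) had an adjusted p of 0.905.

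The promoters of the steadiest gene and of both transporters are shown for reading beside these values. RefSeq windows of 300 bases (250 before the start and 50 after it, GRCm38.p6) covered 5 of the 10 genes, with 8 windows in all for Cd36, Lmf1, Slc27a1, Slc27a4 and Vldlr. Capitals mark the motifs searched on both strands, AGGTCA, the half-site of nuclear receptors such as the PPAR and RXR factors, its direct repeat with 1 base between the copies, which contains the half-site, the GC box GGGCGG and the TATA box TATAAA. The windows are chr5:17835847-17836146 on the minus strand for a start inside the annotated Cd36 gene, chr8:71568621-71568920 on the plus strand for the upstream start of Slc27a1 and chr2:29802384-29802683 on the plus strand for Slc27a4.
Cd36: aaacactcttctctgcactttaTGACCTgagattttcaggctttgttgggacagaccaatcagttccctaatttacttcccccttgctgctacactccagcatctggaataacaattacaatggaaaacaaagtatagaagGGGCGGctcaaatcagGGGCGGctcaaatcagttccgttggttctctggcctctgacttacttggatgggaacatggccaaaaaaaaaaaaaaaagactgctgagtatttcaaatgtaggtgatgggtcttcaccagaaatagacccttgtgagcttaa
Slc27a1: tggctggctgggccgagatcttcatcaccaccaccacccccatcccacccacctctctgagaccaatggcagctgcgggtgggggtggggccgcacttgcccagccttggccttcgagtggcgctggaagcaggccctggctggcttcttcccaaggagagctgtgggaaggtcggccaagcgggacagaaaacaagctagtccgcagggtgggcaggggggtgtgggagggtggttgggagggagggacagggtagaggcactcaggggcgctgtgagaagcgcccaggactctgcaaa
Slc27a4: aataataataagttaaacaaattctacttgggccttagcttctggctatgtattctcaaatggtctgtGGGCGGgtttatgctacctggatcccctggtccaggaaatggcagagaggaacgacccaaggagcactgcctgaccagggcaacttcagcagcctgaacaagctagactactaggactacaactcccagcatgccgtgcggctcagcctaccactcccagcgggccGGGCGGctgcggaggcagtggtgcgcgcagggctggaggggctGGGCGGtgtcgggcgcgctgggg
The Cd36 window held 1 half-site and 2 GC boxes, that of Slc27a4 held 3 GC boxes, and that of Slc27a1 held none of the motifs, while its other 2 windows held 1 and 3 GC boxes. Over all 32851 windows, 16.3% held a half-site, 35.7% a GC box, 13.6% a TATA box and 0.0396% the direct repeat. Of the bases, 43% were G or C in the Cd36 window, 65.7% in that of Slc27a1 and 58.7% in that of Slc27a4, against a median of 52.7% over all windows. These matches are descriptions of the letters in the windows.

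Levels of transcripts were compared between genes per length, as TPM (transcripts per M). With the union of all exons as the length, Fabp4 led at 3921 ± 354 TPM (SD, n = 8, labelled iFAXLKO) and 3749 ± 490 TPM (SD, n = 5, WT). The order then ran through Cd36, Lpl, Angptl4, Slc27a1, Gpihbp1, Vldlr, Fabp5 and Slc27a4 to Lmf1, which had 9.91 ± 0.852 and 8.95 ± 0.911 TPM. Each gene exceeded the next in 13 of 13 libraries, except Vldlr over Fabp5 in 12. With the length of the principal transcript, chosen after seeing the data, Fabp4 stayed first. Lpl then came before Cd36 in 11 of 13 libraries, at 1326 ± 208 against 1090 ± 53.7 TPM in the labelled group. Slc27a1, Angptl4 and Gpihbp1 formed the middle at 275 ± 40.0, 235 ± 63.5 and 218 ± 60.2 TPM in that group, and their order held in only 8 and 9 of 13 libraries. Fabp5, Lmf1, Vldlr and Slc27a4 followed.

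**Figure D3:**
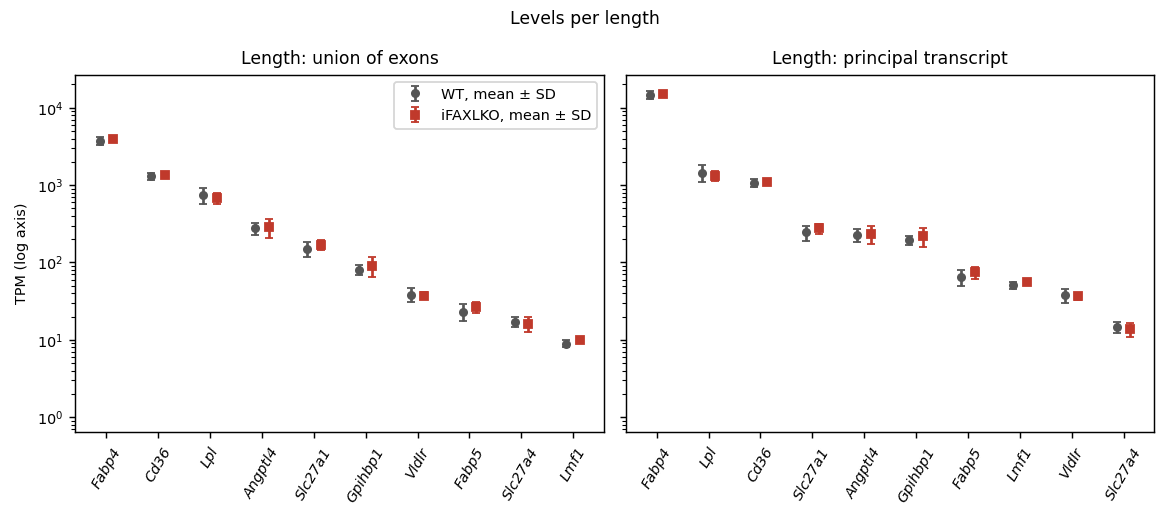
Mean TPM ± SD (y axis, log scale) of the 10 genes in WT (grey circles, n = 5) and libraries labelled iFAXLKO (red squares, n = 8), with the length taken as the union of exons or as the principal transcript. Fabp4 is highest in both panels, and the order of Cd36 and Lpl depends on the length.

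The genes differed in how much they varied between libraries of a group. The pooled SD of log2 CPM within groups was 0.09 for Cd36, lower than for all but 4.51% of the genes tested, and 0.13 for Lmf1, at percentile 17.5. Vldlr, Fabp4, Slc27a1, Lpl and Slc27a4 lay between 0.18 and 0.26. At the upper end were Fabp5 at 0.32, Gpihbp1 at 0.36 and Angptl4 at 0.41, the last at percentile 88.0. Both the steadiest and the most variable gene had many counts, with Cd36 ranked 38 and Angptl4 255 by mean CPM, not scaled by length, among the 13360 genes.

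The comparison of adipocyte and endothelial genes was made as ratios within a library, which do not depend on library size. A total of 8 ratios were tested by an exact permutation test, 2-sided, over all 1287 assignments of the libraries to 8 and 5, with a smallest possible p of 0.000777. None had an adjusted p under 0.05, and the lowest adjusted p was 0.527. The log2 ratio of Lpl to Gpihbp1, enzyme to endothelial anchor, ran from 4.84 to 5.56 in WT and from 4.50 to 5.60 in the labelled libraries. The means differed by -0.24 (SE 0.18, exact p = 0.212), and 2 of 8 labelled libraries exceeded the WT mean. Gpihbp1 against the mean of 12 endothelial markers differed by -0.03 (SE 0.17, exact p = 0.862), and Lpl against 9 adipocyte markers by -0.18 (SE 0.20, exact p = 0.329). Among the 9 adipocyte markers 7 had negative differences, yet their mean log2 CPM was 0.02 higher in the labelled group. Retn, one of them, had a log2 fold change of 0.87 (adjusted p = 0.490). Ratios of Lpl and Vldlr to the adipocyte markers without Retn were not computed. Of the endothelial markers 10 of 12 had a positive difference (46.4% of all genes did) and 1 of 12, or 8.33%, an unadjusted p under 0.05 (7.38% of all genes). Cdh5, the cadherin of endothelial junctions, was at 230.5 ± 32.3 CPM in the labelled group and 199.8 ± 38.5 CPM in WT. Kdr, with Cdh5 the highest of these markers by mean CPM, went the other way, at 206.7 ± 45.4 and 224.6 ± 47.1 CPM.

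The largest of the 8 differences were those of the maturation factor and of the transporters. Lmf1 to Lpl was at 0.26 (SE 0.15, exact p = 0.101), with 6 of 8 labelled libraries above the WT mean. Slc27a4 to Slc27a1 was at -0.28 (SE 0.23, exact p = 0.255), Fabp5 to Fabp4 at 0.14 (SE 0.13, exact p = 0.295), Angptl4 to Lpl at 0.13 (SE 0.31, exact p = 0.669) and Vldlr to the adipocyte markers at -0.10 (SE 0.18, exact p = 0.497). Within the library number ranges, Fabp5 to Fabp4 was -0.10 in the lower, and the ratios of Lpl and Vldlr to adipocyte markers were 0.04 and 0.13 there, with signs other than the pooled ones. Slc27a4 to Slc27a1 was -0.59 in the lower range and -0.0086 in the upper.

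**Figure D4:**
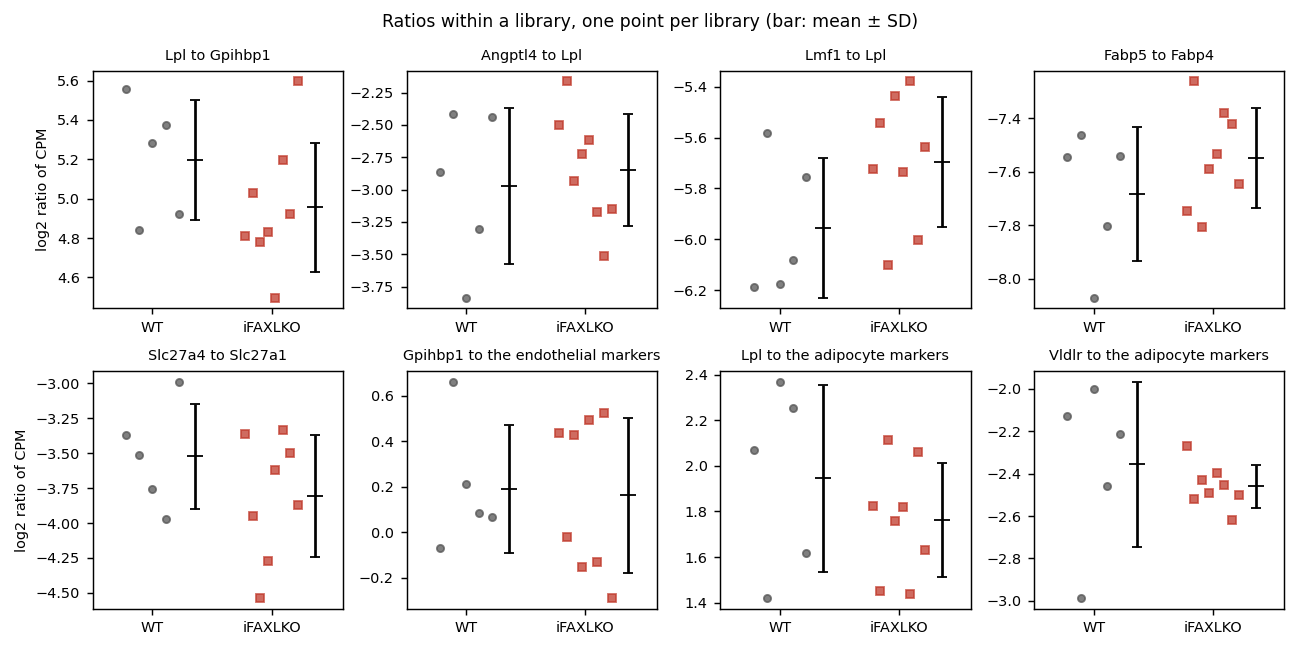
Log2 ratio of CPM within each library (y axis, a log scale) for the 8 ratios, in WT (grey circles) and libraries labelled iFAXLKO (red squares), with mean ± SD as a black bar. The groups overlap in 8 of 8 panels, and the ratio of Lpl to Gpihbp1 runs from 4.84 to 5.56 in WT and from 4.50 to 5.60 in the labelled libraries.

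Co-variation between libraries was examined after subtracting group means, with 100000 permutations per relation. Of 45 pairs among the 10 genes, 0 passed adjustment within the family, and 3 had a raw p under 0.05 for Pearson's r. Lpl and Slc27a1 had the highest correlation, Pearson's r = 0.76 (permutation p = 0.00262, adjusted 0.118) and Spearman's rho = 0.75 (p = 0.00404 by permutation). It was 0.69 without the 2 libraries farthest from the median, and 0.50 and 0.92 in the lower and upper ranges of library numbers. Fabp4 and Fabp5 had r = 0.75 (permutation p = 0.00879, adjusted 0.198) but rho = 0.25, and r was -0.11 without the 2 farthest libraries, on which it rested. Cd36 and Vldlr had r = 0.64 (permutation p = 0.0193, adjusted 0.289), and 0.42 without the 2 farthest. Lpl and Gpihbp1, the lipase and its carrier, had r = 0.50 and rho = 0.52 (permutation p = 0.0808 and 0.0733). The lowest r was that of Lpl and Fabp5, -0.54 (permutation p = 0.0505), with rho = -0.66 (permutation p = 0.0152, adjusted 0.343). Its r was -0.65 and -0.70 in the lower and upper ranges of library numbers.

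**Figure D5:**
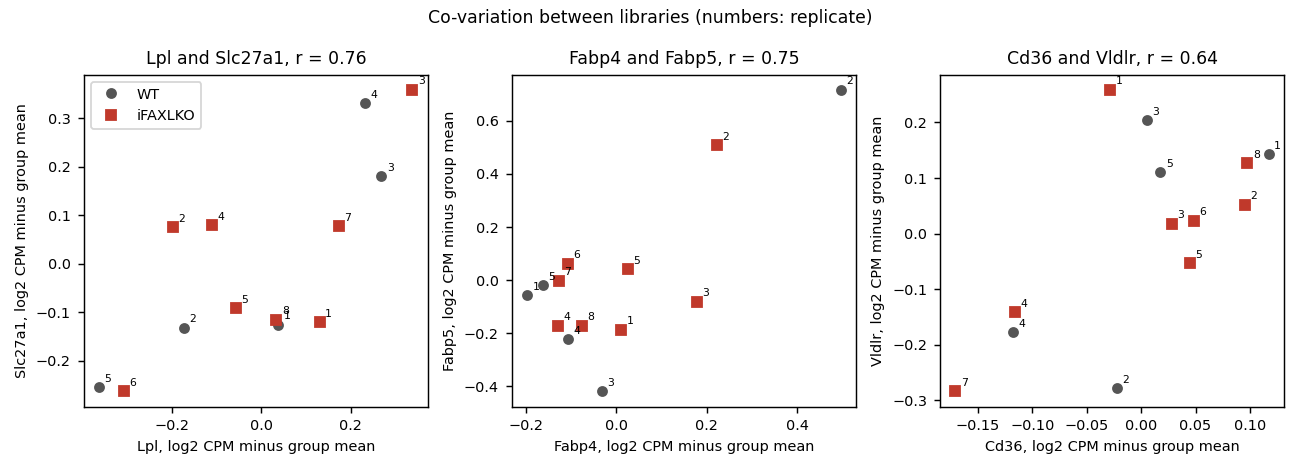
Log2 CPM minus the group mean for 3 pairs of genes, x against y, in WT (grey circles) and libraries labelled iFAXLKO (red squares), each point a library with its replicate number. Lpl and Slc27a1 (r = 0.76) and Cd36 and Vldlr (r = 0.64) spread along a slope, while for Fabp4 and Fabp5 (r = 0.75) the replicate 2 of each group lies far from the rest.

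Other genes with the most similar pattern over the 13 libraries are named as a description, with no test. For Lpl they were Slc7a8, Cbs and Adcy3 (r = 0.91, 0.89 and 0.88), for Gpihbp1 Ly6c1, Bvht and Lims2 (r = 0.95, 0.93 and 0.93), and for Cd36 Bap1 and Grsf1 (r = 0.92 and 0.89). For Fabp4 they were Srp9, Pnpla2 and Tmbim4 (r = 0.97, 0.96 and 0.96), and for Angptl4 Atp6v1g2, Akirin2 and Cdkn2d (r = 0.95, 0.88 and 0.87). Pnpla2, the adipose triglyceride lipase, also belongs to the adipocyte markers used here.

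Markers of other cell types were measured beside these genes. Over the tissue, 9 of 9 fibroblast markers had a higher mean in the libraries labelled iFAXLKO with an unadjusted p under 0.05. Over all genes 3.84% were higher at that limit. None of the 9 passed adjustment. Their summed level ran from 542 to 1195 CPM in the labelled group and from 390 to 698 CPM in WT. For macrophages, which also make LPL, CD36 and FABP4, 8 of 8 markers had positive differences, against 46.4% of all genes. Of these markers 5 of 8, or 62.5%, were higher with an unadjusted p under 0.05 (3.84% of all genes). Their sums ran from 99.6 to 206 CPM in the labelled group and from 85.3 to 124 CPM in WT. Lyz2, the lysozyme of myeloid cells, was at 67.1 ± 15.2 against 49.3 ± 7.96 CPM and Col3a1, a fibrillar collagen, at 306 ± 114 against 186 ± 60.3 CPM. With the fibroblast score as a covariate 4 of the 10 genes changed sign, where the log2 fold change of Vldlr was 0.15, that of Cd36 0.07, that of Slc27a1 -0.07 and that of Fabp5 -0.13. With the macrophage score 6 changed sign, among them Gpihbp1 at -0.04 and Slc27a1 at -0.07, and Lpl moved from -0.17 to -0.32 (unadjusted p = 0.0471, adjusted p = 0.99995, edgeR). Both covariates were chosen after seeing the data, and 0 of 10 genes were called with either. The scores themselves differed between the groups. The fibroblast score was 0.60 higher in the labelled group (SD 0.31, WT 0.25) and the macrophage score 0.36 higher (SD 0.28, WT 0.18). These fits therefore cannot separate a score from the group, and the SE of Cd36 rose from 0.07 to 0.11 with the fibroblast score.

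Skeletal muscle markers varied from 2.71 to 4211 summed CPM in the labelled libraries and from 16.9 to 2958 in WT. With their score as a covariate the signs of 9 of 10 genes were as before and Fabp4 was at 0.01. The lymphocyte markers were under the filter and summed to 20.1 CPM in WT replicate 1, against 0.913 to 6.21 CPM in the others. Their part in the results on fatty acid uptake was not tested. Mural markers, 6 of 6 positive (46.4% of all genes were), ran from 613 to 769 summed CPM in the labelled libraries and from 499.9 to 742 in WT.

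Relations of the 10 genes with the adipocyte, endothelial, macrophage and muscle scores gave 0 of 40 past adjustment. Of the 40, 7 had a raw permutation p under 0.05 for Pearson's r. The highest r was that of Fabp4 with the adipocyte score (r = 0.73, permutation p = 0.00948, adjusted 0.182, rho = 0.46), which was -0.23 in the upper range of library numbers. Slc27a1 had like values with the macrophage score (r = 0.66, rho = 0.79, permutation p = 0.0137, adjusted 0.182) and the endothelial score (r = 0.63, rho = 0.69, permutation p = 0.0200). Fabp5 had r = 0.71 with the adipocyte score (permutation p = 0.0129, rho = 0.34) and -0.60 with the endothelial score (permutation p = 0.0288, rho = -0.62). With the macrophage score, Cd36 had r = -0.61 (permutation p = 0.0253, rho = -0.47) and Vldlr -0.57 (permutation p = 0.0434, rho = -0.56). Gpihbp1 had r = 0.48 and rho = 0.35 with the endothelial score (permutation p = 0.0951 for r), and 0.73 without the 2 farthest libraries.

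The wider pathway was covered by 5 lists, and edgeR called 0 genes in each. In LPL maturation and regulation, 12 of 16 genes were tested, with a median log2 fold change of 0.16 and 2 at an unadjusted p under 0.05, both positive, that is 16.7% against 7.38% of all genes. Sdc1, a heparan sulphate proteoglycan of the cell surface, was at 3.19 ± 0.725 against 2.29 ± 0.514 CPM (log2 fold change 0.49, adjusted p = 0.550). Lmf2, a paralogue of Lmf1, had 0.18 (adjusted p = 0.609), and Lipg, endothelial lipase, had 0.24 (adjusted p = 0.817). The fibroblast score as a covariate put Sdc1 at -0.01 (SE 0.20), in a fit that cannot separate the score from the group.

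Among lipoprotein receptors, 5 of 7 genes were tested and the median was 0.09. Of the 5, 1 (20%) had an unadjusted p under 0.05, against 7.38% of all genes. Scarb1, the receptor for high-density lipoprotein, was at 77.7 ± 13.4 against 63.9 ± 8.42 CPM (log2 fold change 0.28, adjusted p = 0.625) with 7 of 8 labelled libraries above the WT mean. The value of Scarb1 was 0.0224 (SE 0.16) with the fibroblast score and 0.0753 (SE 0.12) with the macrophage score as a covariate. Neither fit can separate the score from the group. Lrpap1, a chaperone of this receptor family, had 0.12 (adjusted p = 0.756). Sorl1, a sorting receptor, had -0.26 (SE 0.40), and its sign was positive without WT replicate 1, at 0.25.

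Of the genes for fatty acid binding, transport and activation, 12 of 18 were tested, with a median of -0.01, and 6 were positive and 6 negative. An unadjusted p under 0.05 was found for 2 of 12 (16.7%, against 7.38% of all genes), 1 in each direction. Fabp3, the heart-type binding protein that brown fat also expresses, was at 468 ± 43.0 against 581 ± 138 CPM, and 0 of 8 labelled libraries exceeded the WT mean. Its log2 fold change of -0.31 (SE 0.12, adjusted p = 0.565) was -0.16 without WT replicate 2. Cavin1 and Cav2, which build caveolae, had 0.21 (adjusted p = 0.642) and 0.16 (adjusted p = 0.724).

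All 5 genes for CD36 palmitoylation and traffic were tested, with a median of -0.04. An unadjusted p under 0.05 was found for 1 of 5 (20%, against 7.38% of all genes). Lyplal1, a serine hydrolase related to the acyl protein thioesterases, was at 8.85 ± 1.01 against 11.7 ± 1.42 CPM, with 0 of 8 labelled libraries above the WT mean. Its log2 fold change was -0.41 (SE 0.10), with an adjusted p of 0.252 in edgeR and of 0.0268 in DESeq2, which called it. Over the alternatives that kept all libraries, the adjusted p of Lyplal1 ran from 0.0268 to 0.99995, while its log2 fold change stayed between -0.47 and -0.35. Zdhhc5, a palmitoyltransferase of CD36, had -0.07 (adjusted p = 0.925) and Lyn, a kinase of its uptake cycle, 0.07 (adjusted p = 0.931).

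Regulators of the uptake genes, 10 of 10 tested, had a median of -0.04 and 0 at an unadjusted p under 0.05 (7.38% of all genes). Foxo1, a transcription factor held back by insulin, was at 67.4 ± 25.0 against 50.9 ± 7.58 CPM (log2 fold change 0.41, adjusted p = 0.721). Ppara and Ppard, nuclear receptors for fatty acids, had -0.42 (adjusted p = 0.824) and -0.13 (adjusted p = 0.734). The list medians stand beside a median of -0.01 over all 13360 genes, with a median SE of 0.12.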

How the data were processed

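RNA was sequenced in 13 libraries of iBAT, 1 per sample, and each deposited file holds whole-number read counts for 42416 Ensembl identifiers. Of these, 42347 had a symbol and position in the GRCm38 annotation. The submitters' processing notes list bcl2fastq 2.20, fastp 0.20.0, STAR 2.7.4a, DESeq2 and GRCm38.p6, while the methods of the study describe Trim Galore and hisat2 on GRCm38. The labels give polyadenylated RNA and the methods depletion of ribosomal RNA. The counting tool and strand setting are not given in the sources used here, so reads of overlapping antisense genes may not be separated, though no annotated gene overlaps the 10 described. Counts without molecular identifiers are not independent molecules, and 3 counts, the limit that a count of 0 allows, is 0.0920 to 0.134 CPM, covering counting error only. A figure legend of the study gives 8 and 5 female mice for this sequencing, and the same legend gives 5 per group for a heatmap of this comparison. Since no source states that each library is a separate mouse, p-values measure the spread between libraries. Pairs of libraries in a group differed by at least 16.6 per degree of freedom in a chi-square statistic, and each was counted once.

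A gene was kept if over 1 CPM in 5 or more libraries (13360 genes). Counts were scaled by TMM and tested with edgeR 4.0.16 (quasi-likelihood F test, robust, 2-sided) in R 4.3.3, adjusting by Benjamini-Hochberg over all genes tested with a limit of 0.05. All fold changes and adjusted p-values in the text are from this fit unless another tool is named. Log2 CPM used a prior count of 2, and a marker score is the mean log2 CPM of its list. TPM were computed from the counts and exon lengths. Ratios used exact permutation tests, and correlations 100000 permutations (Python 3.11.15, scipy 1.17.1). The script was tested on simulated data with 13360 genes for this comparison, where 74% of 50 genes at a fold of 1.5 and 96% of 50 at a fold of 2 were recovered, 98% at 0.5 and 64% at 0.667, with 2 false calls. Changed genes were drawn only from those with a mean over 5 CPM, and the simulated noise was independent between genes. With 50 genes changed at each fold, against 17 called in the data, these shares may not hold for the data.

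The alternatives were DESeq2 1.42.0, limma-voom with sample quality weights (limma 3.58.1), upper quartile or RLE factors, totals without mitochondrial and the 10 most abundant genes, no filter beyond 1 count, a replicate block, covariates for library number range, muscle and endothelial scores, a prior count of 5 and each library left out. Fibroblast and macrophage scores as covariates, removal of the muscle score from correlations and the principal transcript length were chosen after seeing the data. The members and lists were chosen with earlier results of these data known. Named genes are the 10 members, Axl, from each pathway list up to 5 tested genes with the smallest p, from each marker list up to 2 with the highest mean CPM, and for 5 members the 3 genes of most similar pattern. Not every gene that this rule picks is reported here. Retn is named outside this rule, for its difference among the adipocyte markers.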

Additional observations from a re-analysis of the deposited data

Results flagged for a closer look

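In groups of 4 to 10 samples, a library was singled out when its gap to the nearest other library, as a share of the group's range, exceeded Dixon's 95% critical value. Of 36 sets of values tested, 3 met this, and chance gives about 1 in 20. Fabp4 was at 10696 CPM in WT replicate 2, with a gap of 0.804 of the WT range. Fabp5 was at 60.6 CPM in WT replicate 2, with a gap of 0.734, and at 58.1 CPM in iFAXLKO replicate 2, with a gap of 0.698. No cause was tested.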

How the results depend on the processing

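No gene of the 10 was called under any of the alternatives run, and library left-out fits gave 0 called each and 14 to 19 genes over all, against 17. Over all genes DESeq2 called 67, the replicate block 7, the fibroblast score 8 and the macrophage score 11, and DESeq2 called 1 gene for CD36 palmitoylation and traffic, Lyplal1. The labels do not state whether replicate numbers pair the samples. Correlations of same-numbered samples were 0.392, 0.422, 0.188, 0.181 and -0.614, with only numbers 1 and 2 correlating best with their own. These values cannot decide whether samples were paired. The replicate block put Fabp4 at 0.0758, Angptl4 at 0.24 and Sorl1 at 0.13. Other signs that turned, all log2 and none called, were with upper quartile factors Cd36 at 0.00349, Fabp4 at 0.0212 and Angptl4 at 0.000167; with library sizes without the most abundant genes Fabp4 at 0.00868; with voom Fabp4 at 0.12, Angptl4 at 0.13 and Sorl1 at 0.36; with the muscle score Fabp4 at 0.0145 and with the endothelial score 0.0353. The fibroblast score gave Cd36 0.0729, Fabp5 -0.13, Slc27a1 -0.0658, Vldlr 0.15, Sdc1 -0.0131, Sorl1 0.38, Lyn -0.0658 and Ppara 0.0251. The macrophage score gave Gpihbp1 -0.0442, Cd36 0.0574, Fabp4 0.00701, Slc27a1 -0.0685, Vldlr 0.0532, Angptl4 0.12, Sorl1 0.41 and Lyn -0.00948. Within library number ranges Fabp5 to Fabp4 was -0.10, Lpl to adipocyte markers 0.0424, Vldlr to adipocyte markers 0.13 (lower) and Gpihbp1 to endothelial markers 0.0290 (upper). The correlation of Fabp4 with the adipocyte score was -0.23, and with Fabp5 -0.20 in the upper range and -0.11 without the 2 farthest libraries. With each library left out in turn, Lpl ran from -0.26 to -0.09, Gpihbp1 from 0.03 to 0.19, Fabp5 from 0.03 to 0.34, Slc27a1 from 0.07 to 0.22, Slc27a4 from -0.19 to -0.06, Vldlr from -0.16 to -0.03, Lmf1 from 0.04 to 0.14, Foxo1 from 0.25 to 0.49, Angptl4 from -0.13 to 0.0769, Cd36 from -0.0514 to 0.00737, Fabp4 from -0.0544 to 0.14, Sorl1 from -0.47 to 0.25, Angptl4 to Lpl from -0.0908 to 0.26 and Gpihbp1 to endothelial markers from -0.0951 to 0.0880. The cause was not tested. The 95% intervals of Angptl4 and Gpihbp1, with pooled SDs of 0.41 and 0.36 on the log2 scale, allow changes of -27.1% to 32.3% and -17.4% to 41.2%.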
